A study of Mus musculus with 2 samples.

Results

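The genes described here are Dcxr, the gene of a reductase for L-xylulose and other carbonyl compounds, and the 8 enzymes of the pentose phosphate pathway, from G6pdx to Taldo1. They were chosen by gene symbol, 9 genes in all, and each is represented by the probe with the highest mean spot signal of the 2 arrays. The annotation names a probe for 8 of them, out of 16444 named genes; it names none for G6pdx, so the first enzyme of the pathway was not measured here. Dcxr was picked because its difference was already known to be among the highest of all genes, so its value and those of the other members are given as a description.

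RNA came from mouse cells that carried Flk-1, the product of Kdr and a surface marker of early mesoderm. They had been made from embryonic stem cells on OP9 cells, a stromal line that supports blood formation, and collected by cell sorting. In one group both copies of AU019823 carried a gene trap, a cassette that cuts transcripts short, and the other was its revertant, which the labels call close to the wild type. Each group has 1 array, from 300000 gene-trapped and 350000 revertant cells, labelled day 4.5. The labels give the 2 samples different codes, which may name clones; a difference between clones cannot be told apart from one between genotypes. Where 2 values of a gene stand side by side, the revertant comes first. With 1 array per group no difference has a replicate check, and no p-value is given. All differences are gene-trapped minus revertant on the log2 scale after an offset of 50 was added, which shrinks the differences of dim probes, and a gene is counted as higher or lower at 2-fold or more.

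The pentose phosphate pathway branches from glycolysis at glucose 6-phosphate. Its oxidative branch makes NADPH, the reducing power for lipid synthesis and for glutathione and thioredoxin, and ends in ribulose 5-phosphate. The non-oxidative branch interconverts pentose phosphates with glycolytic intermediates and supplies ribose 5-phosphate for nucleotides. Dcxr is not an enzyme of either branch. It uses NADPH to reduce L-xylulose to xylitol in the glucuronate route, which ends in D-xylulose 5-phosphate, an intermediate of the non-oxidative branch.

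The stretches just upstream of 3 genes are shown, because Dcxr had the largest difference of the members, Pgd the largest positive one among the enzymes and Tkt one of the 2 lowest. They are the 250 bases before the annotated RefSeq start in GRCm38.p6, written 5′ to 3′ on the strand of the gene. Capitals mark GGGCGG (a GC box) and the letters CCAAT on either strand; the last pair of GC boxes of Tkt overlaps. Pgd has 2 annotated starts, and the first is shown. The Dcxr stretch is chr11:120727285-120727534 on the minus strand, that of Pgd chr4:149166706-149166955 on the minus strand and that of Tkt chr14:30548881-30549130 on the plus strand.
Dcxr: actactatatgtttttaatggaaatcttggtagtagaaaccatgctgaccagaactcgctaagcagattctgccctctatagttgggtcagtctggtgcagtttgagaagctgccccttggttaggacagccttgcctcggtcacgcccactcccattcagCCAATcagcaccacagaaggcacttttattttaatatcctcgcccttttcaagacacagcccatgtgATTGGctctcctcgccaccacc
Pgd: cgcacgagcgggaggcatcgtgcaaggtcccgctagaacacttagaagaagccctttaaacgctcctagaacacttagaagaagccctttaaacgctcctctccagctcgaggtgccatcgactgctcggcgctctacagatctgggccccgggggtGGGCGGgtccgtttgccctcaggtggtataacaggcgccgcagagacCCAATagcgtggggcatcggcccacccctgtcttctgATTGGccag
Tkt: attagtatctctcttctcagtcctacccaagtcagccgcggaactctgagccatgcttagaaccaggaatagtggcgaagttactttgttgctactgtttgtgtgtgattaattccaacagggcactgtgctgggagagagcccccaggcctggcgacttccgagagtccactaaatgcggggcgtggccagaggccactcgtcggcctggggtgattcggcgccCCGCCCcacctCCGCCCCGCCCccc
The Dcxr stretch holds 5 CpG dinucleotides and has a GC content of 48.8%, against 18 and 60.4% at Pgd and 14 and 59.6% at Tkt, where the median over 32851 such stretches is 6 and 52.4%. A GC box lies upstream of 7 of the 9 genes and in 32.7% of all stretches; Dcxr and H6pd are those without one. CCAAT lies upstream of 4 of the 9 genes, namely Dcxr, H6pd, Pgd and Taldo1, and in 33.8% of all stretches. TGACNNNGC, the core of the antioxidant response element through which NRF2 acts, was found among the 9 genes at G6pdx alone (10.2% of all stretches), as was the decamer motif bound by p53 (7.13%). The E-box CACGTG was found in none of the stretches of the 9 genes and in 6.02% of all stretches. The same held for the hypoxia core ACGTG, the E-box without its first letter (16.6%), for the cyclic AMP element TGACGTCA (1.55%) and for the TATA letters TATAAA (12.4%). These are matches of letters in short windows and were not tested as sites.

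Dcxr was 4.65-fold higher in gene-trapped cells. The spot of its probe, M200006364, read 117 in revertant and 546 in gene-trapped cells, which is 5.22 and 27.1 times the mean of the blank spots. On the normalized log2 scale these are 7.07 and 9.29, a difference of 2.22. The signal was thus above background on both arrays and high on the gene-trapped one. On the revertant array it was not far from those of Rpia and H6pd, at 4.21 and 3.87 times the blank mean. The local background column of the scanner file, which was not subtracted, was 45.2% and 21.0% of the Dcxr signal. The fold therefore rests on a low revertant value. The annotation names 1 probe for Dcxr, so no other probe bears on it. Of the 13753 named genes that exceeded background on each array, 46 (0.334%) were called higher and Dcxr ranked at place 2. It ranked at place 8 in the authors' table and at place 73 after subtraction of the local background, and at place 2 in the other settings tried. Above it stood 1700007K13Rik at 2.73, a gene known by a clone name, and below it Mixl1, a homeobox gene of the primitive streak, at 1.99 and Cox6b2, a cytochrome c oxidase subunit gene, at 1.97. The values deposited by the authors put Dcxr at 62.4 and 448, a 7.19-fold difference.

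**Figure D1:**
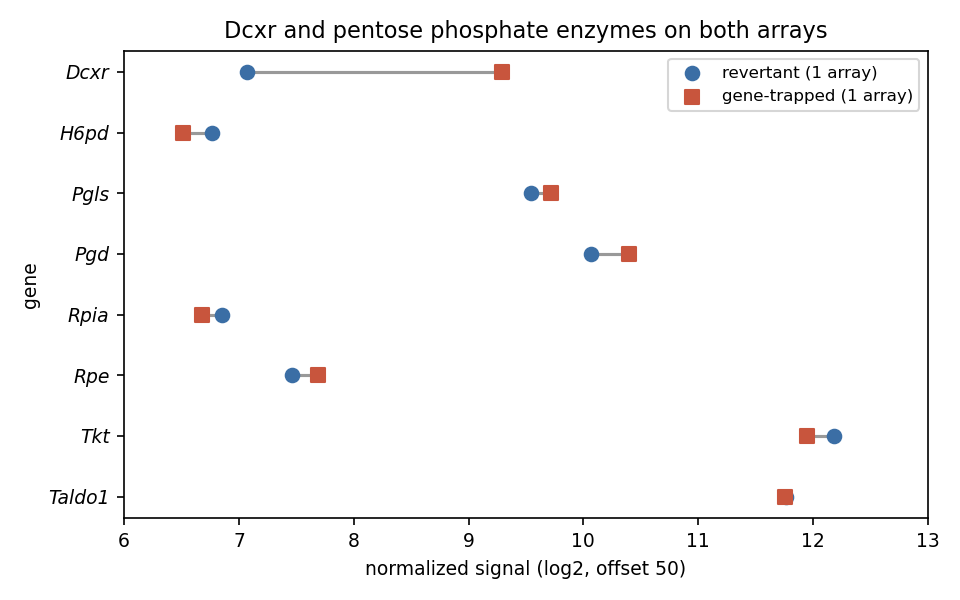
Normalized log2 signal (horizontal axis) of each measured member (rows) in revertant (circles) and gene-trapped cells (squares), 1 array each, joined by a line. Dcxr goes from 7.07 to 9.29, while the lines of the 7 enzymes span 0.33 or less; the level of one gene cannot be set against that of another, since each has its own probe.

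Of the oxidative branch, Pgd and Pgls lay slightly higher and H6pd slightly lower in gene-trapped cells, and none reached 2-fold. Pgd, the 6-phosphogluconate dehydrogenase that yields NADPH and ribulose 5-phosphate, had spot signals of 1127 and 1218. Its normalized values were 10.07 and 10.40, a difference of 0.33. This was the largest difference among the enzymes, and 16.9% of all genes had one at least that far from 0. Pgls, the lactonase between the 2 dehydrogenases of the branch, had spot signals of 781 and 746 and a normalized difference of 0.17. Its raw and normalized differences have opposite signs: the normalization evens out the overall brightness, and the gene-trapped array had a median probe signal of 38.6 against 47.5. H6pd, the hexose 6-phosphate dehydrogenase of the endoplasmic reticulum, had spot signals of 86.9 and 53.4, or 6.76 and 6.52 after normalization. Its difference of -0.25 is the lowest of all members in the main setting, close to that of Tkt at -0.23. The order is not stable: under median scaling Tkt had -0.40 and H6pd -0.31. G6pd2, an autosomal copy of G6pdx that the annotation does name (probe M400002985), had spot signals of 100.5 and 71.3 and a difference of -0.10; the extent to which its probe detects G6pdx is unknown.

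Of the non-oxidative branch, Rpe lay slightly higher, Rpia and Tkt slightly lower and Taldo1 level, again with none at 2-fold. Rpe, the epimerase that makes xylulose 5-phosphate, had spot signals of 164 and 154. It had normalized values of 7.47 and 7.69, a difference of 0.22 whose sign, as for Pgls, is opposite to that of the raw values. Rpia, the isomerase that makes ribose 5-phosphate, had 94.7 and 62.4, and 6.85 and 6.68 after normalization, a difference of -0.17. Both enzymes act on the same substrate, ribulose 5-phosphate, and their differences have opposite signs. Tkt, the transketolase that moves 2-carbon units, had spot signals of 5118 and 3524. Its normalized values were 12.18 and 11.95, a difference of -0.23. Taldo1, the transaldolase that moves 3-carbon units, had 3839 and 3098, and 11.77 and 11.76 after normalization. Its difference of -0.013 is the closest to 0 of the members in the main setting, and 89.1% of all genes lay farther from 0. Tktl1 and Tktl2, relatives of Tkt, were near or below the background limit: Tktl1 had 28.1 and 27.2 and Tktl2 22.2 and 19.9, where the limits of the arrays were 25.0 and 22.3.

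Over the members, 1 of 8 was at least 2-fold higher, namely Dcxr, and 0 were lower, against 0.334% and 1.08% of all genes tested. Since Dcxr was chosen for that value, the count says nothing beyond it. The 7 enzymes ran from -0.25 to 0.33 with a median of -0.013 (-0.17 under median scaling, 0.066 in the authors' table, -0.24 after subtraction of the local background), where the median of all genes was 0.0079 and the central 95% ran from -0.70 to 0.57. All 7 therefore lay within that central range. They split into 3 above and 4 below 0, and the branches into 2 of 3 above 0 in the oxidative and 1 of 4 in the non-oxidative one, while 53.3% of all genes lay above 0. As a technical scale, the log2 ratio of raw spot signals between arrays had an SD of 0.108 over the 24 spots of one positive control. It was 0.0989 over the 24 spots of another. Apart from Taldo1 the enzymes' differences exceed both SDs, and 53.7% of all genes lay within the larger one. The SDs come from raw ratios, whereas the differences come from normalized values with an offset. They are also a spread between bright spots of the same 2 hybridisations and hold nothing of the spread between cultures.

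**Figure D2:**
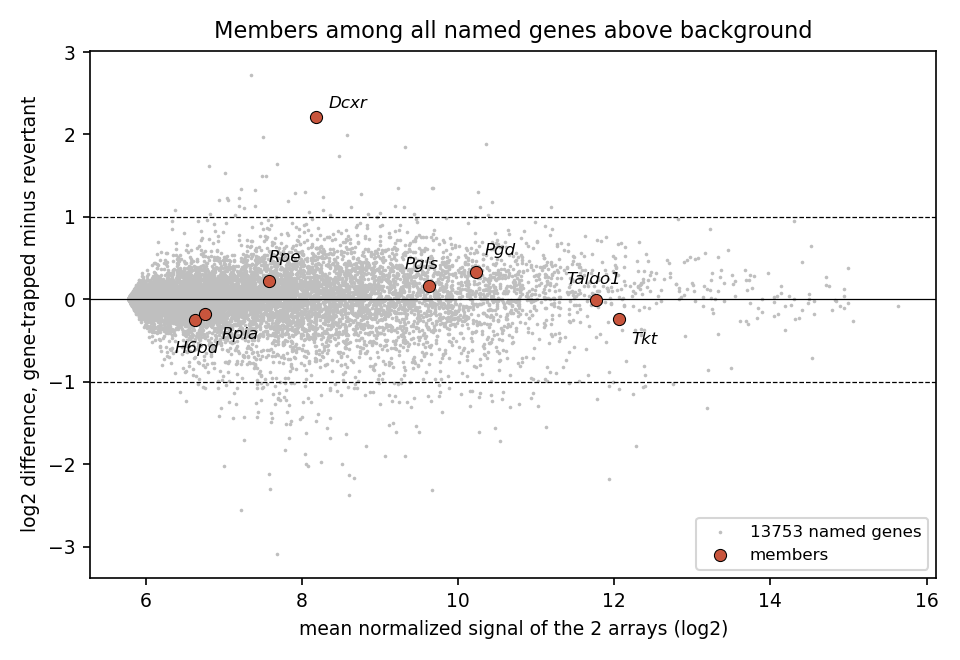
Log2 difference, gene-trapped minus revertant (vertical axis), against the mean normalized log2 signal of the 2 arrays (horizontal axis) for the 13753 named genes above background (grey) and the 8 measured members (red); dashed lines mark 2-fold. Dcxr lies at 2.22, near the upper edge of all genes, and the 7 enzymes lie between -0.25 and 0.33 in the dense band around 0.

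Of 11 other ways of processing, both changes of the filter leave the value of a member as it is, and the mean of probes changes Pgls alone. Under the other 8 each enzyme kept its sign, except that Taldo1 had 0.066 in the authors' table. Taldo1 also moved away from 0 under median scaling, to -0.17, and with the local background subtracted, to -0.33. Tkt and Rpe had spots whose local background, a column of the scanner file that was not subtracted, came close to their own signal. For Tkt it read 4335 and 3541, or 84.7% and 100.5% of the spot signal. For Rpe it was 100.1% and 66.6% of the spot signal, and for Taldo1 77.4% and 76.0%. After subtraction no signal was left for Tkt on the gene-trapped array, so its -3.96 in that setting, nominally a call as lower, rests on the floor of the correction and is no measured fold. Rpe, without signal left on the revertant array, had 0.64 there in the same way. With that subtraction 1.35% of all genes were lower and 2.04% higher. Dcxr had its lowest difference, 1.79, under the same subtraction and its highest, 2.85, by the authors' values, by which 2.01% of 14203 genes were higher and 4.02% lower. It was called higher in each of them.

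**Figure D3:**
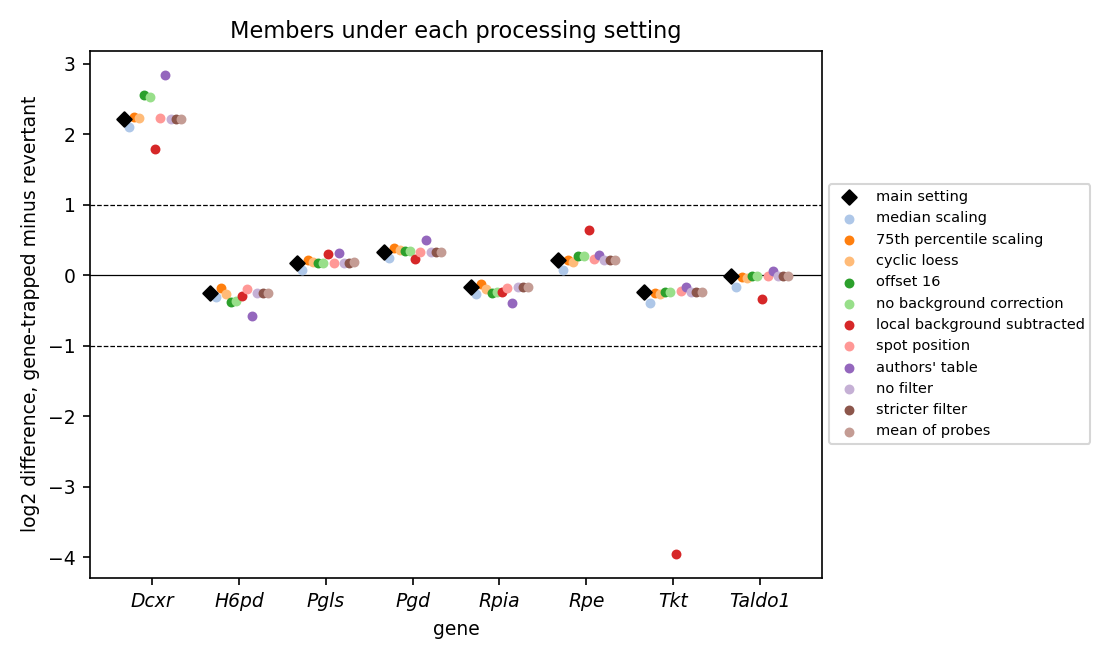
Log2 difference, gene-trapped minus revertant (vertical axis), of each member (horizontal axis) in the main setting (black diamonds) and 11 other settings (coloured dots); dashed lines mark 2-fold. Dcxr stays between 1.79 and 2.85, and one setting, subtraction of the local background, puts Tkt at -3.96, where no signal was left on the gene-trapped array.

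Other genes of the glucuronate route did not share the value of Dcxr. Of 13 measured genes listed for that route and for reactions beside it 0 were at least 2-fold higher and 0 lower. Among all genes 0.334% were higher and 1.08% lower, so counts of 0 in a list this short say little. The median of the 13 was -0.05. Ugdh, which oxidises UDP-glucose to UDP-glucuronate, had spot signals of 2040 and 1025 and a difference of -0.75. Sord, the dehydrogenase that takes xylitol, the product of Dcxr, on to D-xylulose, had 116 and 55.5 and a difference of -0.50. Cryl1, which acts on L-gulonate just before L-xylulose, had 72.7 and 72.2 and a difference of 0.24. Xylb, the kinase of D-xylulose, was dim on both arrays at 28.6 and 26.3 and had 0.048; it was named outside the naming rule, since it is the last step of the route.

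The family of Dcxr, the short-chain dehydrogenases and carbonyl reductases, held no other member that was 2-fold higher. Of 25 measured genes 0 were higher and 1 lower, against 0.334% and 1.08% of all genes, with a median of 0.01. At such shares a list of this length would rarely hold a higher gene, so its absence says little. The lower one was Dhrs7, a reductase of the endoplasmic reticulum, with 421 and 130 and a difference of -1.20. Of the relatives named as carbonyl reductases, Cbr1 had 0.19, Cbr3 0.09 and Cbr4 0.12, and these 3 were chosen for their function after their values were seen. The 25 genes ran from -1.20 to 0.61, with 13 above and 12 below 0. Highest were Rdh11 at 0.61 and Spr at 0.53, which were also named after their values were seen.

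Genes that handle ribose, pentoses or the exit to nucleotides had a median of -0.05 over 10 measured genes. Of these 0 were higher and 1 lower, against 0.334% and 1.08% of all genes. The lower one is annotated as Pgm2, a phosphoglucomutase, with spot signals of 2962 and 726 and a difference of -1.72; the names of Pgm1 and Pgm2 have been exchanged in the mouse, so which of the pair the probe detects is uncertain. Prps1 and Prps2, which both activate ribose 5-phosphate to PRPP, had opposite signs. Prps2 had 142 and 202, a difference of 0.75, and Prps1 had 687 and 438, a difference of -0.37. Tigar, a p53 target whose product lowers fructose 2,6-bisphosphate and so favours the pentose phosphate pathway, had 62.9 and 62.0 and a difference of 0.21. Prps1, Prps2 and Tigar were named after their values were seen.

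Of 10 measured genes of other enzymes around NADPH 0 were higher and 2 lower, where 0.334% of all genes were higher and 1.08% lower. Their median was -0.35, with 3 above and 7 below 0. Both lower genes serve mitochondrial folate metabolism. Mthfd2, a methylenetetrahydrofolate dehydrogenase, had spot signals of 2494 and 879 and a difference of -1.21. Mthfd1l, a formyltetrahydrofolate synthetase that does not itself make NADPH, had 291 and 95.2, a difference of -1.05. The NADPH-using antioxidant enzymes and NRF2 targets had a median of 0.0031 over 16 genes and 0 at 2-fold in either direction. Among all genes 1.41% were at least 2-fold apart. Prdx1, a peroxiredoxin fed by thioredoxin, had 0.60, Nfe2l2, the gene of NRF2 itself, 0.50, and Blvrb, a biliverdin and flavin reductase, -0.63.

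Glycolysis, the pathway from which the pentose phosphates branch, differed from the enzymes in its counts. Of 18 measured genes 9 were at least 2-fold lower and 0 higher, with a median of -0.97, beside 0 of 7 pentose phosphate enzymes and 1.08% of all genes. Next to the branch point, Gpi1, the isomerase that takes glucose 6-phosphate on into glycolysis, had -1.11, and the phosphofructokinase genes Pfkp and Pfkl had -2.13 and -1.49. Hk2, the hexokinase that makes glucose 6-phosphate, had -0.38 and is named outside the naming rule, for its place in the pathway. Of the later steps, Aldoc had -1.55, Pgk1 -1.32, Gapdh -1.10 and Tpi1 -1.08, and the glucose transporter genes Slc2a3 and Slc2a1 had -2.18 and -1.78. The difference between the lists was not tested, and this glycolysis list was drawn up with its direction known.

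**Figure D4:**
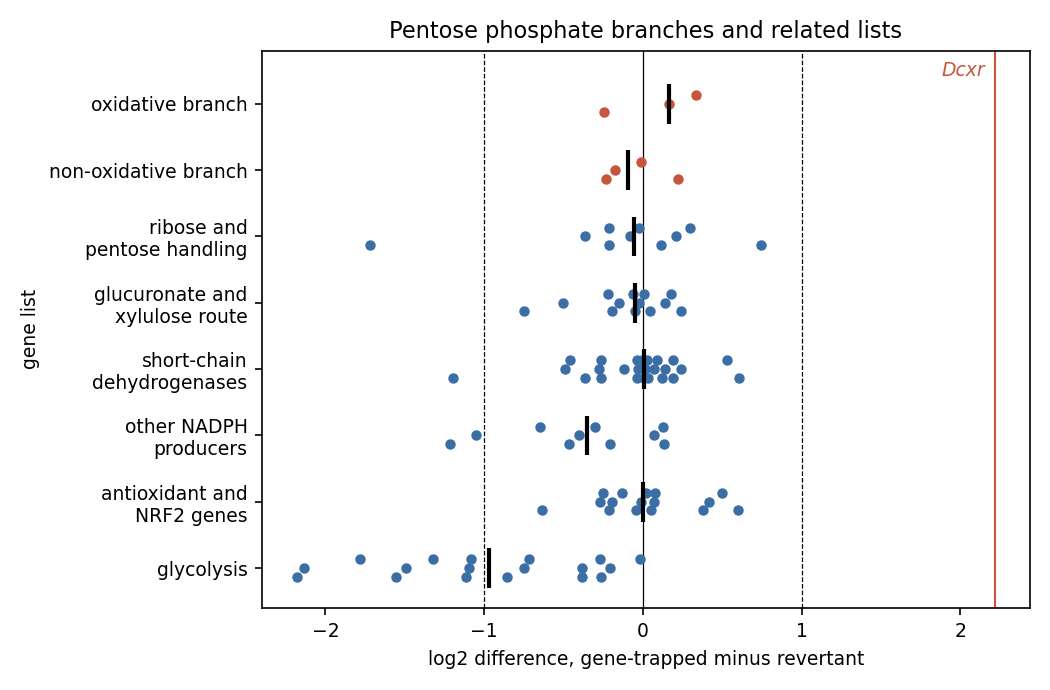
Log2 difference, gene-trapped minus revertant (horizontal axis), of each gene above background on both arrays, by gene list (rows), with the median as a black bar; dashed lines mark 2-fold and the red line Dcxr. The 7 enzymes of the 2 branches (red dots) lie between -0.25 and 0.33, whereas the glycolysis genes have a median of -0.97.

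The genes beside Dcxr on chromosome 11 did not share its difference. In the RefSeq order, among genes with a named probe, the nearest on one side is Rac3, with spot signals of 86.0 and 66.4 and a difference of -0.01, followed by Lrrc45 at -0.13 and Cenpx, a centromere protein gene annotated as Stra13, at 0.43. On the other side the nearest is Cbr2, a carbonyl reductase gene of the same family as Dcxr. It had 31.0 and 22.0, the latter not above background, so the high Dcxr value has no counterpart at this adjacent relative. Beyond it Rfng had 0.04 and Gps1, a COP9 signalosome subunit gene, 0.74, with 1460 and 2074. Gps1 was the highest of all neighbours examined. For the 9 members together, 3 neighbours on each side gave 54 genes, of which 45 were above background on both arrays. Genes without a named probe were skipped, so some of these neighbours are not adjacent. Up to 207 genes lie between at Rpia and up to 32 at G6pdx. None of the 45 was at least 2-fold apart, against 1.41% of all genes, and they ran from -0.62 to 0.74 with a median of -0.0084.

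**Figure D5:**
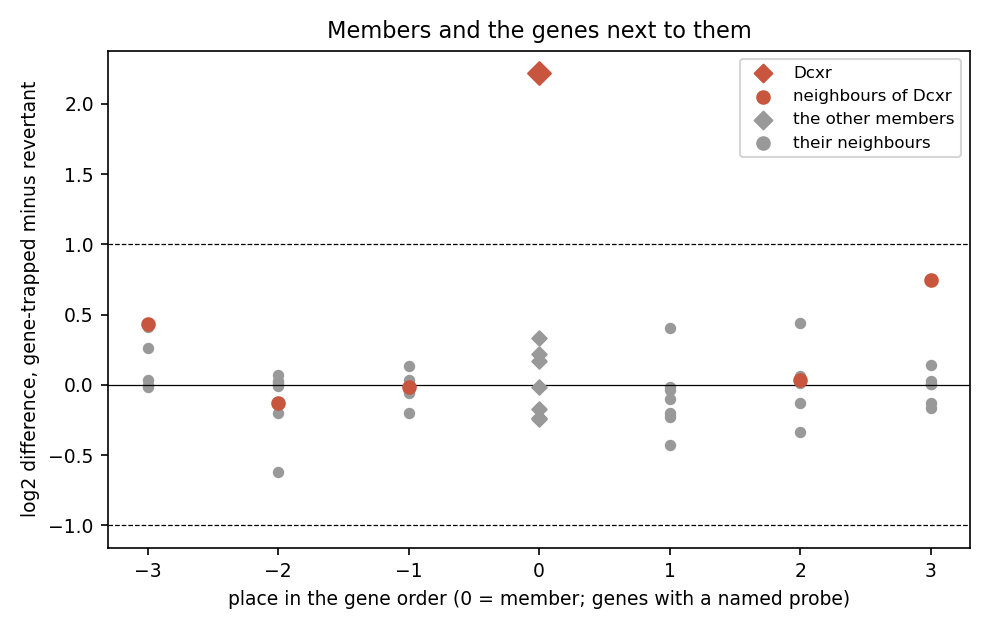
Log2 difference, gene-trapped minus revertant (vertical axis), of the 8 measured members (diamonds at place 0) and of those of their 3 neighbours on each side that were above background on both arrays (dots), in gene order (horizontal axis, spacing not to scale). Genes without a named probe are skipped, with up to 207 genes between Rpia and a plotted neighbour. Dcxr stands at 2.22 and its 5 plotted neighbours between -0.13 and 0.74.

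Of the checks on the cells, normalized Kdr was 9.92 and 9.27, a difference of -0.65, and AU019823 8.88 and 8.49, a difference of -0.39; where its probe lies relative to the trap is unknown. All 14 early mesoderm markers were above background on both arrays, 2 of them at least 2-fold higher (Mixl1 at 1.99 and Etv2 at 1.30), and their summed spot signal was 6727 in revertant and 7236 in gene-trapped cells. Etv2 alone made up 810 and 1739 of these sums, and 9 of the 14 markers lay above 0. Markers of other cells were summed in the same way, on raw signals that are not evened out between the arrays. The blank mean of 22.5 and 20.1 per spot was not taken off these sums. They also hold genes not above background, so sums of dim lists are partly blank signal. Beside the counts of all these marker lists, 0.334% of all genes were higher and 1.08% lower. A count of 0 among 4 genes says little. The sum over 5 endothelial markers was 1757 and 489, with 3 of 4 above background at least 2-fold lower, among them Flt1 at -1.53 and Tek at -1.31. The sum over 11 stromal markers was 5034 and 1954, with 2 of 10 lower, Col1a1 at -1.49 and Acta2 at -1.30; Acta2 alone made up 3603 and 1195 of these sums, and the median of the 10 was -0.34, with 3 above 0. For 5 blood markers it was 688 and 366, with 0 of 4 at 2-fold, Gata1 at -0.77, Itga2b at -0.72 and Tal1 at -0.69, and Runx1 at 0.25. For 7 pluripotency markers it was 2005 and 3248, with 2 higher, Tdgf1 at 1.88 and Dppa5 at 1.21, and a median of 0.073. Tdgf1 alone made up 707 and 2249 of these sums. For 6 endoderm markers the sum was 291 and 270, with 0 of 4 at 2-fold, Sox7 at 0.28, Gata4 at 0.21 and Sox17 at -0.14. For 3 neuroectoderm markers it was 267 and 443, with Otx2 at 1.29 and Nes at 0.37. Otx2 alone made up 141 and 311 of the neuroectoderm sums. Tal1, Runx1 and Sox17 were named after their values were seen. Dcn, Cdh5, Ptprc, Afp, Ttr and Pax6 were not above background on both arrays, and no probe is named for Pou5f1, Sox2, Hbb-bh1, Hba-x and Sox1. The part of these marker values in the values of Dcxr and the enzymes was not tested, and in such bulk RNA fewer cells of a type and less RNA per cell cannot be told apart.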

How the data were processed

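Total RNA was amplified, coupled to Cy5 and hybridised to 1-colour TORAY oligonucleotide arrays, per the labels' protocols. The deposited scanner files give the median spot intensity at 635 nm without background subtraction, read at 3 gains joined by least squares, per the file headers. The authors' table of processed intensity follows these values on a straight line (Pearson r of 1.0 on both arrays): the spot signal less about the blank mean, divided by 1 constant per array, so that each column has a median of 25.0. Neither scanner software nor genome build is given in the sources used here.

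Intensities were corrected with normexp (offset 50, fitted on all 27456 spots) and quantile-normalized with limma 3.58.1 in R 4.3.3, after 2 quality-flagged probes and the controls were dropped. Later steps used pandas 2.3.3 and numpy 2.4.6 under Python 3.11.15. The method was tested on simulated arrays. These had about the spread of the positive controls, and only bright probes were changed in them. They do not bear on dim probes or on the spread between cultures. A probe counts as above background when it exceeds the mean of 2736 blank spots by 2 SD on both arrays. The number of arrays limits the precision. Symbols are those of the platform annotation (16631 of 23473 probes have 1, 6842 have none, 0 have several), and list genes were also matched through synonyms in a RefSeq table of GRCm38.p6, which gave the gene order. All 9 members have a promoter sequence in the RefSeq table used.

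Members, lists and alternatives were chosen with earlier results of these data known. Named genes are the members, the list genes at least 2-fold apart or else the 3 farthest from 0, the genes next to Dcxr in order of difference, chromosomal neighbours, up to 2 genes of each marker list, Kdr and AU019823; the exceptions are stated where they appear. The 11 alternatives were median and 75th percentile scaling, cyclic loess, offset 16, no background correction, subtraction of the local background, correction for spot position, the authors' table, no filter, a stricter filter of 5 SD, and the mean of a gene's probes.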

Additional observations from a re-analysis of the deposited data

Results flagged for a closer look

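Some signals outside the values used above exceeded their level at the blank spots. With the revertant array given first, the local background column read 53.0 and 115 at the Dcxr spot and 4335 and 3541 at the Tkt spot, against means of 14.3 and 15.7 at blank spots. The second probe of Pgls, M400002719, which the rule on the brightest probe left aside, had 26.0 and 29.6, just above the background limits of 25.0 and 22.3, and a log2 difference of 0.19, the same sign as the probe used. G6pd2, which is no member, had 100.5 and 71.3.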

How the results depend on the processing

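No paired analysis was possible because the labels give 1 array to either group. Dcxr, H6pd, Pgd, Pgls, Rpia and Rpe kept their sign and their side of 2-fold under the 8 alternatives that can change any member's value; the filters change none and the mean of probes only Pgls. Tkt had -3.96 with the local background subtracted, nominally 1 member at least 2-fold lower; no signal was left on the gene-trapped array, so this is the floor of the correction. Taldo1 had 0.066 in the authors' table, -0.17 under median scaling and -0.33 with the local background subtracted. The median over the 8 members, 0.077, had -0.047 under median scaling. Without Dcxr it went from -0.013 to -0.17 there and to -0.24 with the local background subtracted. Against 46 higher and 148 lower genes, offset 16 gave 87 and 238, leaving out the background correction gave 84 and 227, and the authors' values gave 285 and 571; subtracting the local background gave 280 higher genes; a smaller offset widens folds of dim genes by construction. The 75th percentile scaling puts the median of all genes at 0.15. It moved the median of the glucuronate route list to 0.13 and that of the paralogues of the enzymes to 0.12, so neither lies above the typical gene there. The paralogues had -0.23 in the authors' table. Other NADPH enzymes had -0.48 under median scaling. Glycolysis had -1.17 under median scaling, -0.65 with the local background subtracted and -1.09 with the mean of probes. Where no construction is named, the cause was not tested. Medians were taken as moved when they shifted by more than the larger SD of the control spots. Low signal over background limits H6pd, Rpia, Tktl1 and the revertant value of Dcxr.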
